A study of Mus musculus with 8 samples.

Results

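Border-associated macrophages are the resident macrophages of the meninges, the perivascular spaces and the choroid plexus. The 8 genes described here, Lyve1, Mrc1, Cd163, Pf4, Stab1, Folr2, Cbr2 and Ms4a7, are known as markers that separate these cells from the microglia of the brain tissue. Every probe set whose only gene symbol in the array annotation was one of the 8 was taken, which gave 10 probe sets of the 45037 that were not controls, for 8 of 18193 measured genes. Lyve1 and Ms4a7 had a pair of probe sets and the other genes had 1 each.

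Expression was measured on microarrays in the fourth ventricular choroid plexus, the epithelium and vascular stroma that secrete cerebrospinal fluid, of mouse embryos at embryonic day 13. There were 4 arrays labelled Otx2 k.o., from an Otx2 deficient strain, and 4 labelled wildtype, from the same litters. All embryos had a mixed strain background, were untreated and were of undetermined sex. The sources used here do not say which cells had lost Otx2, when, or how many embryos made up a sample.

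Values are log2 expression levels. Array medians were 5.85 to 5.90. Otx2, the homeodomain transcription factor targeted in the knockout, read 12.38, 12.46, 12.44 and 12.48 in the arrays labelled knockout and 11.998, 12.05, 11.97 and 11.85 in the wildtype arrays, so the targeted gene was higher, not lower, in the arrays labelled knockout (limma, adjusted p = 0.000648). The sources used here do not give where its probes lie relative to the deleted part, and the directions below rest on the labels alone. Ttr, the thyroid hormone carrier and a known marker of the choroid plexus epithelium, was at 14.17 ± 0.03 and 14.21 ± 0.04 (SD, n = 4 each, knockout-labelled first). Of 9 epithelial genes it was the only one that did not differ (limma, adjusted p = 0.647). The other 8 were lower in the knockout-labelled arrays, and the median log2 fold change of the 9 was -1.01.

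Macrophages reach the brain borders early in development, from the yolk sac, and they live on signals through the receptor Csf1r. Their surface carries scavenger and endocytic receptors that take up matrix components, glycoproteins and lipoproteins. Lyve1, Mrc1, Cd163 and Stab1 belong to this machinery. Folr2 is a folate receptor, Ms4a7 a membrane-spanning protein, Pf4 a secreted chemokine and Cbr2 an enzyme. Several of the 8 markers are also made by other cell types, which are named with each gene below.

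Of the 8 genes, 5 rose in the knockout-labelled arrays (Lyve1, Mrc1, Stab1, Ms4a7 and Cbr2), 0 fell and 3 did not pass the test (Pf4, Cd163 and Folr2). The test was limma over all 18193 genes with a Benjamini-Hochberg adjusted p under 0.05, and at an unadjusted p under 0.05 the counts were 6 higher and 0 lower. Over all genes, 7.84% were higher and 11.7% lower by the adjusted p, and 14.2% and 16.9% at an unadjusted p under 0.05, the shares to set beside every such count below. The median log2 fold change of the 8 genes was 0.40, against 0.00 for all genes. In 6 of the 8 genes every knockout-labelled array lay above every wildtype array, which held for 9.98% of all genes. Without wildtype replicate 3 the number that rose was 3, namely Lyve1, Mrc1 and Stab1, and in that fit 905 genes of the whole array were higher in place of 1426. The arrays measured whole tissue, so more macrophages, more of these transcripts per macrophage and shifts in other cell types cannot be told apart.

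**Figure D1:**
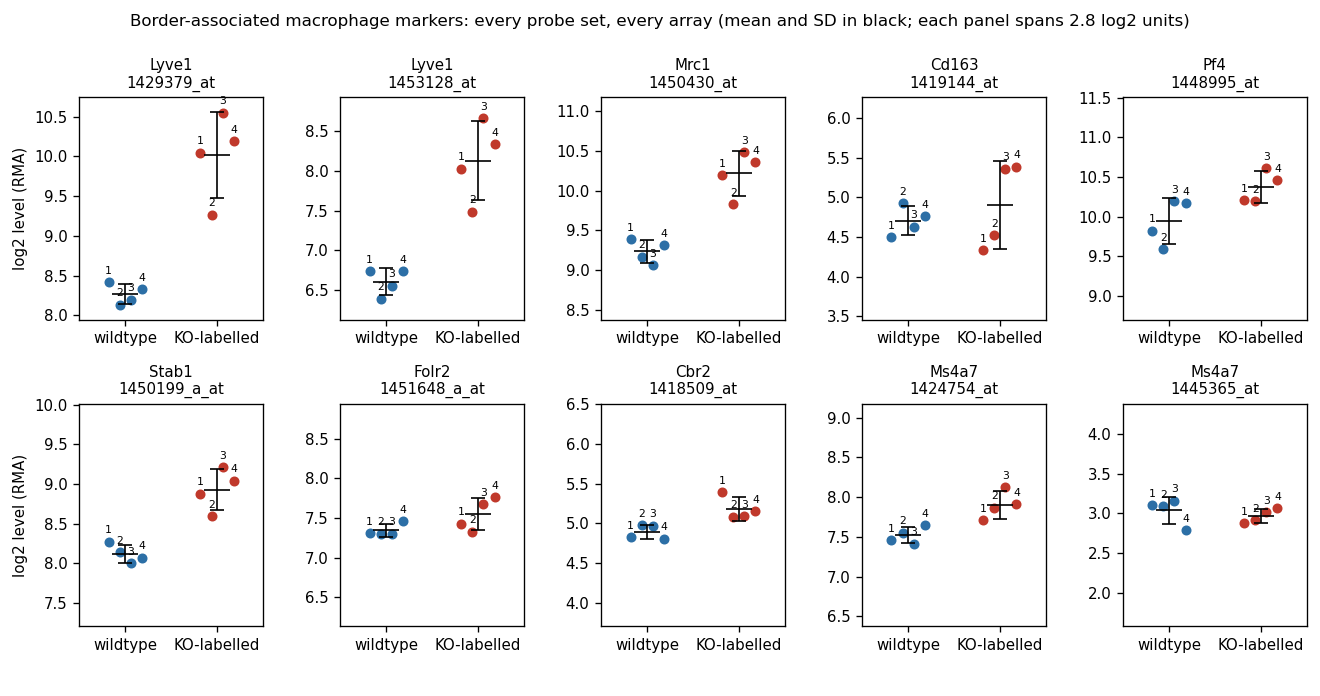
Log2 expression level of all 10 probe sets of the 8 markers on each array, with the replicate number beside each point and the group mean and SD (n = 4) in black; the vertical axes differ in position but all span the same number of log2 units. The knockout-labelled arrays stand clear of the wildtype arrays for both Lyve1 probe sets, Mrc1 and Stab1, and overlap them for Cd163, Folr2 and the dim second probe set of Ms4a7.

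The 3 genes with the largest changes, Lyve1, Mrc1 and Stab1, are scavenger and endocytic receptors, and the receptors with the smallest values, Cd163 and Folr2, did not pass. Lyve1, a receptor for the matrix sugar hyaluronan that is also made by lymphatic endothelium, read 10.05, 9.27, 10.55 and 10.19 in knockout-labelled replicates 1 to 4 on its brighter probe set, 1429379_at. The wildtype arrays read 8.42, 8.13, 8.20 and 8.33. The wildtype arrays were close together, while the knockout-labelled arrays were spread, with replicate 2 lowest and replicate 3 highest. Even so, the lowest knockout-labelled array was 0.85 log2 units above the highest wildtype array. The mean rose 3.35-fold, a log2 fold change of 1.75 (SE 0.23, 95% interval 1.24 to 2.26, limma adjusted p = 0.000594). Only 22 genes of the array, Lyve1 among them, had a log2 fold change at least as large in this direction.

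The second, dimmer Lyve1 probe set, 1453128_at, gave 8.03, 7.49, 8.66 and 8.34 in the knockout-labelled arrays and 6.74, 6.39, 6.55 and 6.74 in the wildtype arrays. It placed the 4 knockout-labelled arrays in the same order as the brighter one, and its groups did not overlap either. In a limma fit over all 45037 probe sets its log2 fold change was 1.52 (SE 0.21, adjusted p = 0.00121). In that fit 5 of the 10 marker probe sets were higher, where 5.27% of all probe sets were. These were both probe sets of Lyve1, those of Mrc1 and Stab1, and the brighter one of Ms4a7.

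Mrc1 encodes the mannose receptor, which binds glycoproteins for uptake and is also found on lymphatic and sinusoidal endothelium. It read 10.20, 9.83, 10.49 and 10.36 in the knockout-labelled arrays and 9.39, 9.17, 9.06 and 9.31 in the wildtype arrays. The groups were separate, with replicate 2 again the lowest and replicate 3 the highest of the knockout-labelled arrays. Mrc1 rose 1.98-fold, a log2 fold change of 0.98 (SE 0.14, 95% interval 0.68 to 1.29, limma adjusted p = 0.000901).

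Stab1 encodes stabilin-1, a large scavenger receptor of macrophages and sinusoidal endothelium. Its levels were 8.88, 8.59, 9.21 and 9.04 in the knockout-labelled arrays and 8.27, 8.14, 8.005 and 8.07 in the wildtype arrays, with the same array order among the knockout-labelled samples as in Mrc1. It rose 1.75-fold, a log2 fold change of 0.81 (SE 0.12, 95% interval 0.53 to 1.09, limma adjusted p = 0.00157). The calls of Lyve1, Mrc1 and Stab1 held in each of the 8 fits that left out 1 array, with adjusted p up to 0.00328, 0.00446 and 0.00740.

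Cd163, the receptor that clears complexes of haemoglobin and haptoglobin, did not pass. Its knockout-labelled arrays read 4.33, 4.52, 5.36 and 5.39 and its wildtype arrays 4.497, 4.93, 4.63 and 4.76. The knockout-labelled arrays split, with replicates 3 and 4 above all wildtype arrays and replicate 1 below them. The log2 fold change was 0.20, and its 95% interval of -0.34 to 0.73 includes a fall as well as a rise (limma adjusted p = 0.649). All its levels lie under the median of all probe sets, 5.88. That median is no measured floor, and no detection call was used, so expression at such levels cannot be told from background here.

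Folr2, a folate receptor of macrophages, read 7.43, 7.33, 7.68 and 7.77 in the knockout-labelled arrays and 7.31, 7.31, 7.30 and 7.46 in the wildtype arrays. The groups overlapped, since wildtype replicate 4 lay above knockout-labelled replicates 1 and 2. The log2 fold change was 0.21 (95% interval -0.02 to 0.43, limma adjusted p = 0.203). Its neighbour on chromosome 7 and close relative is Folr1, the folate receptor of the choroid plexus epithelium, which fell by 1.12 on the log2 scale (SE 0.09, limma adjusted p = 3.77e-05). Folr1 read 10.88, 11.22, 11.28 and 11.15 in the knockout-labelled arrays and 12.18, 12.27, 12.30 and 12.27 in the wildtype arrays, which do not overlap. Whether the probes of either gene also bind the other's transcript was not tested.

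The remaining markers, Ms4a7, Cbr2 and Pf4, had log2 fold changes between those of Folr2 and Stab1. Ms4a7, a membrane-spanning protein of the macrophage surface, read 7.71, 7.87, 8.13 and 7.91 in the knockout-labelled arrays and 7.46, 7.55, 7.42 and 7.65 in the wildtype arrays. The groups were separate by 0.06 log2 units, and the log2 fold change was 0.38 (SE 0.09, 95% interval 0.17 to 0.60, limma adjusted p = 0.0191). The call ended on leaving out wildtype replicate 3 (adjusted p = 0.0597) and on averaging its probe sets (0.155). The other Ms4a7 probe set, 1445365_at, lay between 2.79 and 3.16 on all 8 arrays, near the bottom of the measured range, and gave a log2 fold change of -0.07. Ms4a6b and Ms4a6c, relatives of Ms4a7 that macrophages also express, rose by 0.69 and 0.43 (limma adjusted p = 0.00438 and 0.00429).

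Cbr2, a carbonyl reductase that is also abundant in airway epithelium, read 5.40, 5.08, 5.09 and 5.15 in the knockout-labelled arrays and 4.83, 4.98, 4.97 and 4.81 in the wildtype arrays. The groups were separate, and here replicate 1 was the highest knockout-labelled array. Its log2 fold change was 0.28 (SE 0.09, limma adjusted p = 0.0442). Leaving out any 1 array other than knockout-labelled replicate 2 ended the call (7 of 8 such fits, adjusted p up to 0.118), and so did a block for the replicate number (adjusted p = 0.0805). Like Cd163 it lies under the median of all probe sets.

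Pf4, platelet factor 4, is a chemokine of border macrophages and of megakaryocytes, the cells that shed platelets. It read 10.21, 10.20, 10.61 and 10.46 in the knockout-labelled arrays and 9.83, 9.59, 10.19 and 10.17 in the wildtype arrays. The groups were separated by only 0.01 log2 units, because wildtype replicates 3 and 4 came close to knockout-labelled replicates 1 and 2. The log2 fold change was 0.43 (SE 0.15, 95% interval 0.09 to 0.76), which did not pass (limma adjusted p = 0.0770). With the replicate number as a block the adjusted p was 0.00876, at the same log2 fold change.

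Wildtype replicates 3 and 4 also had the highest levels of megakaryocyte genes. Ppbp, another platelet chemokine and the neighbour of Pf4 on chromosome 5, read 9.56 and 9.34 there, against 8.14 and 7.88 in wildtype replicates 1 and 2 and 7.91 to 8.66 in the knockout-labelled arrays. Over the 7 measured genes of megakaryocytes and platelets, 0 rose and 1 fell, Itga2b, an integrin of platelets (log2 fold change -0.35, limma adjusted p = 0.0173), with 0 and 4 at an unadjusted p under 0.05. The call of Itga2b was lost without knockout-labelled replicate 1 and without wildtype replicate 4. Their list median was -0.30, and their mean level was 7.16 to 7.44 in the knockout-labelled arrays and 7.30 to 7.94 in the wildtype arrays. The part of platelet RNA in the Pf4 values was not tested.

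Of the 8 genes, 7 had a promoter in the RefSeq table (GRCm38.p6). Those of the members other than Lyve1 that rose are shown. Whether these genes share a regulator was not tested. Each runs 5′ to 3′ on the gene's strand, from 250 bases before to 50 after the annotated start, with GAGGAA or its other-strand form TTCCTC in capitals. GAGGAA is a core form of the site bound by PU.1, the transcription factor that macrophages depend on. The windows are chr2:14229164-14229463 on the plus strand for Mrc1, and on the minus strand chr14:31168592-31168891 for Stab1, chr11:120731972-120732271 for Cbr2 and chr19:11336097-11336396 for the first listed start of Ms4a7.
Mrc1: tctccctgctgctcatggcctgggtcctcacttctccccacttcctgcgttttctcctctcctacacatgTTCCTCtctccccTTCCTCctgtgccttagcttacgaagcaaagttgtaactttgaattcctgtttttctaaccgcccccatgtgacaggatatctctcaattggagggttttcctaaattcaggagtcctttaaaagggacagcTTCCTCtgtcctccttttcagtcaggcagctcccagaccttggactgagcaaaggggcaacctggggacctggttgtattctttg
Stab1: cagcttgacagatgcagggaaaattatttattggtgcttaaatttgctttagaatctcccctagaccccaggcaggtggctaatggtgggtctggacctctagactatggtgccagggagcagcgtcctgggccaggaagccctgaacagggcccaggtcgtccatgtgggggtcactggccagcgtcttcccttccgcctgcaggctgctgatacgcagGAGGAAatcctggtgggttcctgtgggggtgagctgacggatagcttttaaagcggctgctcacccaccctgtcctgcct
Cbr2: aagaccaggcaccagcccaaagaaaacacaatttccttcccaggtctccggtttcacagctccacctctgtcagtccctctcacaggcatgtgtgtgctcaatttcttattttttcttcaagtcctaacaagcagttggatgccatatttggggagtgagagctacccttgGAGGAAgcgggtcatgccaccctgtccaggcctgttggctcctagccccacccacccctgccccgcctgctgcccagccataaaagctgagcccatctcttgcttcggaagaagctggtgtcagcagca
Ms4a7: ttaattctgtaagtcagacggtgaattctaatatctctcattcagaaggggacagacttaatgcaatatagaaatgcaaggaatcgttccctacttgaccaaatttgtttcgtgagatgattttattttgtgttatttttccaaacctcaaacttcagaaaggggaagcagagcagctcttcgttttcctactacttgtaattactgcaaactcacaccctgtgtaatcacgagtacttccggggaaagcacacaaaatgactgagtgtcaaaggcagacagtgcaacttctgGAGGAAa
The Mrc1 window held 3 matches, all as TTCCTC, beginning at bases 71, 84 and 216 of the window. Stab1, Cbr2 and Ms4a7 held 1 match each as GAGGAA, beginning at bases 221, 172 and 294. Pf4 held 1 as TTCCTC, at base 243, and Cd163, both starts of Folr2 and the second start of Ms4a7 held 0. The letters occurred on either strand in 28.3% of the 32851 windows of the table, so a match is a description of these windows and not a binding site.

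**Figure D2:**
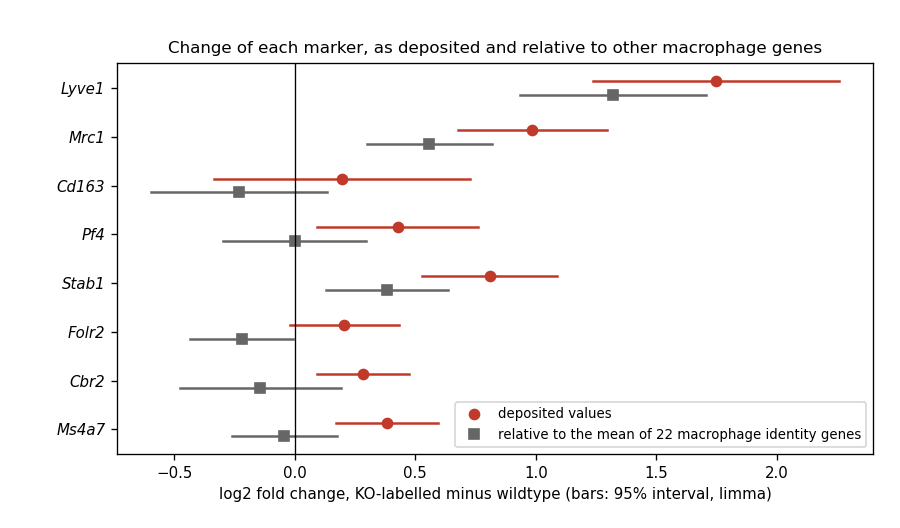
Log2 fold change of each marker, knockout-labelled minus wildtype, with 95% intervals from limma: circles for the deposited values, squares after each array was set relative to its mean over 22 macrophage identity genes. Lyve1, Mrc1 and Stab1 stay above 0 in both, while the squares of Pf4, Ms4a7, Cbr2, Cd163 and Folr2 lie at or below 0 with intervals that, but for that of Folr2, include it.

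The markers were next set beside genes shared by macrophages of all kinds. Of 22 macrophage identity genes 13 rose, 0 fell and 9 did not pass (limma, 15 and 0 at an unadjusted p under 0.05), with a median log2 fold change of 0.48. Adgre1, the F4/80 antigen, rose by 0.89 from 7.39 ± 0.19 to 8.28 ± 0.19. C1qa, a chain of complement C1q, rose by 0.75, Laptm5, a lysosomal membrane protein of blood cells, by 0.63, and the growth factor receptor Csf1r by 0.49 (limma adjusted p = 0.000685, 0.00221, 0.00206 and 0.00526). Fewer passed when 1 array was left out: 8 of the 22 in the fits lacking knockout-labelled replicate 4 or either of wildtype replicates 1 and 2, and 7 in the fit lacking wildtype replicate 3. The mean over the 22 genes was 8.02 to 8.42 in the knockout-labelled arrays and 7.71 to 7.89 in the wildtype arrays.

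Each array was then set relative to its own mean over these 22 genes, and limma was fitted again over all genes. This comparison was added after the data were seen. It removes the shift of 0.43 log2 units in that mean and lowers the log2 fold change of every gene alike. The median over all genes was -0.43 in this fit. In it 1.25% of all genes were higher, a share that the subtraction itself makes small. Lyve1, Mrc1 and Stab1 were higher relative to the mean of the identity genes, by 1.32 (SE 0.18), 0.56 (SE 0.12) and 0.38 (SE 0.12), with limma adjusted p of 0.000115, 0.00244 and 0.0136. In all 3 genes every knockout-labelled array was above every wildtype array on this scale. The scale compares with a mean and not with each identity gene. That mean includes Itgam (-0.05) and Cd14 (0.14), the 2 identity genes that lay under the median of all probe sets. No fit without them was run. On the deposited values the largest log2 fold change among the 22 was 0.91. Lyve1 and Mrc1 lay above it, while Stab1, at 0.81, lay below it and below Adgre1, at 0.89.

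The other 5 markers did not differ past the threshold from the mean of the identity genes. Pf4 gave a relative log2 fold change of 0.00 (95% interval -0.30 to 0.30) and Ms4a7 of -0.04 (-0.26 to 0.18). Cbr2 gave -0.14 (-0.48 to 0.19) and Cd163 -0.23 (-0.59 to 0.13). For Folr2 the relative value was -0.22 (-0.43 to -0.01, limma adjusted p = 0.0602). The 95% interval of Lyve1 on this scale, 0.94 to 1.70, lies above those of the other 7 genes.

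Other genes known from border-associated macrophages gave a mixed picture. Of 17 measured, 5 rose, 0 fell and 12 did not pass (limma, 5 and 1 at an unadjusted p under 0.05), with a median of 0.14. F13a1, the transglutaminase of clotting factor XIII, rose by 1.02, Colec12, a scavenger receptor that stromal and endothelial cells also make, by 1.00, and Dab2, an endocytic adaptor, by 0.84 (limma adjusted p = 0.000221, 0.000460 and 0.000630). F13a1 read 10.61, 10.54, 10.996 and 10.82 in the knockout-labelled arrays and 9.86, 9.57, 9.65 and 9.81 in the wildtype arrays, without overlap. The remaining pair that rose were Ms4a6b and Ms4a6c.

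Of 9 measured genes preferred by microglia, 4 rose, 0 fell and 5 did not pass (limma, 5 and 0 at an unadjusted p under 0.05), with a median of 0.33. Olfml3, a secreted protein also made by mesenchyme, rose by 0.93 from 7.86 ± 0.07 to 8.78 ± 0.25 (limma adjusted p = 0.000471). Tmem119, also known from bone-forming cells, rose by 0.71, Gpr34, a lysophospholipid receptor, by 1.04, and the purine receptor P2ry12 by 0.35 (limma adjusted p = 0.000522, 0.00853 and 0.00601). P2ry12, known as a marker of microglia in the brain, was at 5.65 ± 0.12 in the wildtype arrays and Gpr34 at 3.69 ± 0.18 (4.73 ± 0.50 in the knockout-labelled arrays). The wildtype levels of both and all means of Gpr34 thus lay under the median of all probe sets. Without a detection call, expression at such levels cannot be told from background, although the groups of both genes did not overlap.

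Of 7 ligands that act on macrophages 4 rose and 0 fell (limma, 4 and 0 at an unadjusted p under 0.05). Cx3cl1, the membrane-bound chemokine seen by the receptor Cx3cr1, rose by 0.91, Cxcl12, a chemokine of stromal cells, by 1.09 and the monocyte chemokine Ccl2 by 0.34 (limma adjusted p = 0.000537, 0.0101 and 0.0214). Csf1, a ligand of Csf1r, rose by 0.36 (limma adjusted p = 0.0473), from 7.97 ± 0.02 to 8.33 ± 0.24. The other Csf1r ligand, Il34, gave 0.14 (adjusted p = 0.376). Ccl2, at 5.66 ± 0.12 and 5.33 ± 0.12 (knockout-labelled first), lies under the median of all probe sets, 5.88, with the same limit as Cd163. With the replicate number as a block 3 ligands rose, and Csf1 did not pass (adjusted p = 0.0604). The number of ligands that rose was 2 without knockout-labelled replicate 1 or 4 or without wildtype replicate 2 or 3.

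**Figure D3:**
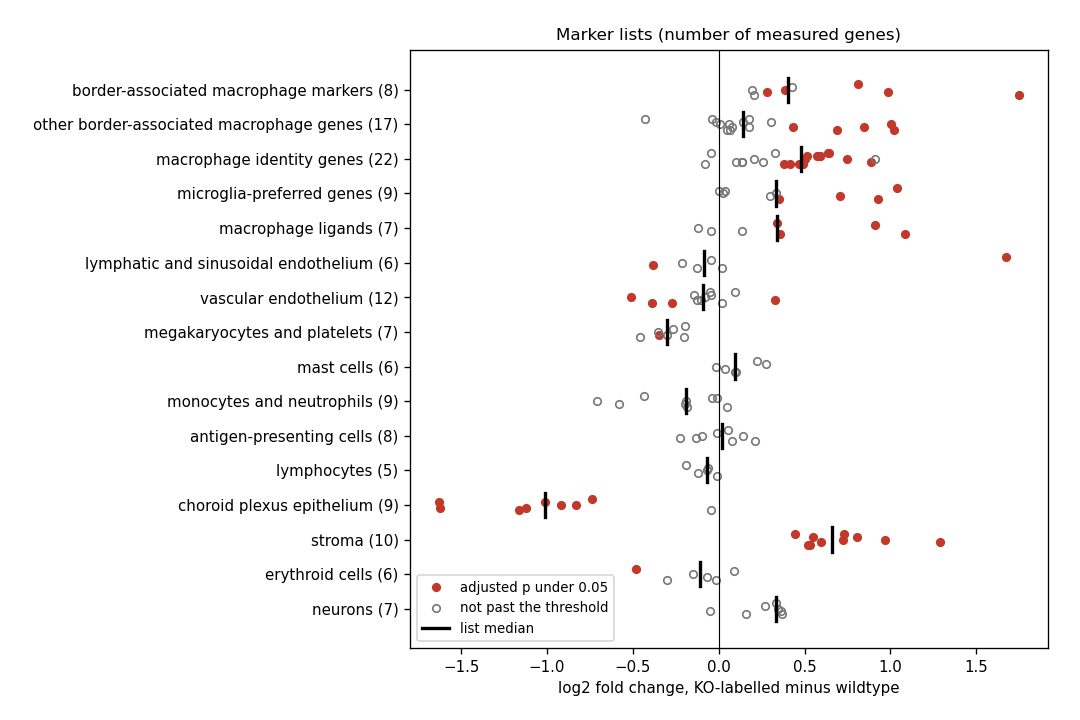
Log2 fold change, knockout-labelled minus wildtype, of every measured gene in 16 marker lists; filled points passed a limma adjusted p of 0.05, open points did not, and black bars are list medians. The medians of the macrophage lists lie to the right of 0, all stroma genes lie to the right and all choroid plexus epithelium genes to the left, and lists of mast cells, monocytes and neutrophils, antigen-presenting cells, lymphocytes and neurons hold no filled point.

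Other blood cell types were looked at with their own markers. Among 9 genes of monocytes and neutrophils, 8 of antigen-presenting cells, 6 of mast cells and 5 of lymphocytes, 0 passed in limma in either direction, and at an unadjusted p under 0.05 there were 0 higher and 3, 0, 0 and 1 lower. The list medians were -0.19, 0.02, 0.10 and -0.07 in that order. The genes with the smallest p were S100a8, a neutrophil alarmin (-0.58, adjusted p = 0.0511), the class II gene H2-Ab1 (-0.23, 0.222), the mast cell chymase Cma1 (0.27, 0.162) and the T cell co-receptor Cd8a (-0.19, 0.0730). These counts of 0 did not hold in every setting. With the arrays centred on their medians 2 genes of monocytes and neutrophils and 1 of lymphocytes were lower, and the same numbers with a further quantile normalization. In monocytes and neutrophils 1 was lower with array weights, with a trended robust prior and without wildtype replicate 1 or 4, and in lymphocytes 1 with array weights and without knockout-labelled replicate 2. Of the 28 genes in these 4 lists, 17 lay under the median of all probe sets. Among 6 erythroid genes 1 fell, the heme enzyme Alas2 (-0.48, limma adjusted p = 0.00489), and with a replicate block 2 fell.

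Endothelial cells also carry Lyve1, Mrc1 and Stab1 at some sites. Among 6 genes of lymphatic and sinusoidal endothelium 1 rose and 1 fell in limma (1 and 2 at an unadjusted p under 0.05), with a median of -0.09. Prox1, the transcription factor that defines lymphatic endothelium, was at 4.05 ± 0.09 and 4.18 ± 0.17, below 4.33, the lower quartile over all probe sets. Stab2, the relative of Stab1 on sinusoidal endothelium, was at 5.27 ± 0.24 and 5.31 ± 0.09 (knockout-labelled first in both, limma adjusted p = 0.409 and 0.835). Prox1 and Stab2 both lie under the median of all probe sets, 5.88, with the same limit as Cd163. The gene that rose was Reln, a secreted glycoprotein of lymphatic vessels and of early neurons (1.67), and the one that fell was Pdpn, podoplanin, which many epithelia also carry (-0.39). Among 12 genes of vascular endothelium 1 rose (Cdh5, 0.33) and 3 fell, among them the diaphragm protein Plvap (-0.51) and Emcn (-0.39), with a median of -0.09. At an unadjusted p under 0.05 (limma) the counts were also 1 and 3. The mean of the 12 was 9.04 to 9.23 in the knockout-labelled arrays and 9.14 to 9.36 in the wildtype arrays. With a replicate block 0 of the 12 rose, and leaving out any 1 array except knockout-labelled replicate 2 also gave 0.

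The stroma and the epithelium moved in the same arrays as the markers. All 10 stroma genes rose (10 in limma, median 0.66), among them Lum (0.53), Tbx18 (0.60) and Col3a1 (0.45). Their mean level was 10.85 to 11.22 in the knockout-labelled arrays and 10.27 to 10.40 in the wildtype arrays. Of 9 epithelial genes 8 fell and 0 rose (median -1.01), with Slc4a10 at -1.63, Tmem72 at -1.62 and Aqp1 at -1.01, and their mean was 10.25 to 10.55 against 11.36 to 11.52. The part that these shifts in other cell types have in the marker levels was not tested.

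The markers were then compared with each other within the groups. Each array's deviation from its group mean was taken for each gene, and Pearson r over the 8 deviations is given as a description. Mrc1 and Stab1 gave 0.95, Lyve1 and Mrc1 0.95, and Lyve1 and Stab1 0.93. Cd163 and Folr2 gave 0.84. Of the 28 pairs 21 were above 0, with a median of 0.50, and the 7 pairs below 0 were those of Cbr2, which ranged down to -0.69 with Ms4a7. Without knockout-labelled replicate 2 the median was 0.45, and 21 pairs were again above 0. Over the 4 knockout-labelled arrays alone 23 pairs were above 0, with a median of 0.79, while over the 4 wildtype arrays alone 13 were, with a median of -0.04. Lyve1 and Cd163, for example, gave 0.66 in the former and -0.75 in the latter, and Lyve1 and Mrc1 0.99 and 0.88. The difference between the groups was not tested. No such values were computed for pairs of other genes, so whether 21 of 28 is many for this array set is not known.

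Knockout-labelled replicate 2 was under its group mean in 8 of 8 markers and replicate 3 above it in 7 of 8. The mean deviation over the markers was -0.11, -0.30, 0.26 and 0.15 in knockout-labelled replicates 1 to 4. In the wildtype arrays it lay between -0.03 and 0.07. The macrophage identity genes deviated by -0.19, -0.16, 0.21 and 0.14 in the same knockout-labelled arrays. The mean of 7 neuron genes, which did not differ between the groups past the threshold (limma, 0 of 7 also at an unadjusted p under 0.05), deviated by 0.03, 0.88, -0.76 and -0.15. Knockout-labelled replicate 2 thus had the highest neuron level of its group and the lowest marker level, and replicate 3 the reverse. Wildtype replicate 4 had the lowest neuron level of its group (deviation -0.82) and the highest marker level (0.07). Wildtype replicate 1, with the highest neuron level of its group (0.96), was near its group mean in the markers (0.00). Wildtype replicate 3, with a neuron deviation of -0.51, was at -0.03 in the markers.

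With the neuron mean as a covariate, an alternative added after the data were seen, 5 of the 8 markers were higher, and they included Pf4 (limma adjusted p = 0.00921) in place of Cbr2 (0.0571). The log2 fold changes of Lyve1, Mrc1 and Stab1 were 1.82, 1.02 and 0.83 in that fit.

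**Figure D4:**
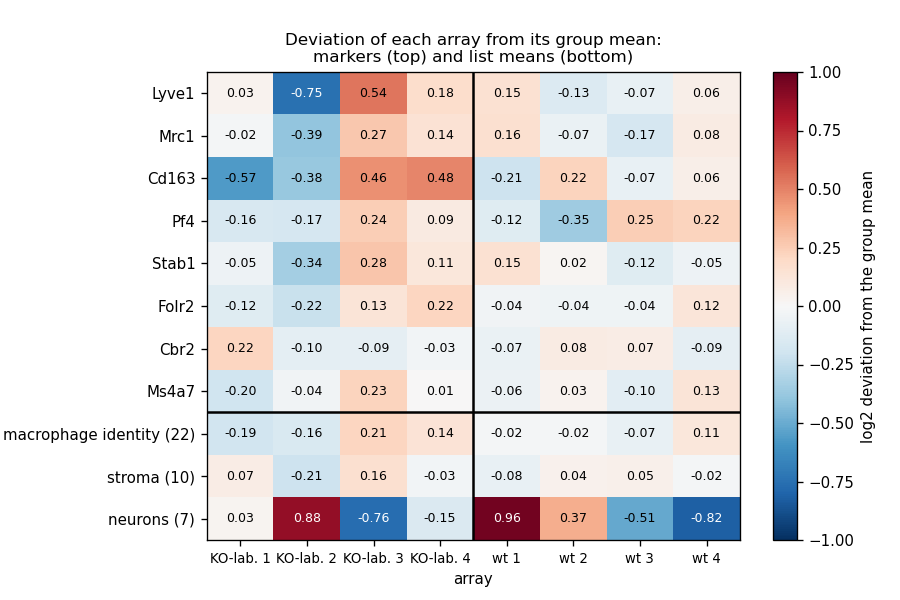
Deviation of each array from the mean of its group in log2 units, for the 8 markers (upper rows) and for the means of the macrophage identity, stroma and neuron lists (lower rows, number of genes in brackets); knockout-labelled arrays are left of the line. Knockout-labelled replicate 2 is below its group mean in all 8 markers, replicate 3 is above it in 7, and the neuron list runs the other way in both.

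Outside the markers, the genes whose deviations were most like the markers' mean deviation were Sned1, Tecpr2, Abcc4, Kansl3, Ptprk and Map2k5, of 8913 named genes above the median level, with r of 0.990 to 0.987 over 8 arrays. With so few arrays and so many genes, r this high is given as a ranking only. Sned1, a matrix protein gene, also rose between the groups, by 1.08 (SE 0.13, limma adjusted p = 0.000313). Tecpr2, a gene of autophagy, and Map2k5, a kinase, fell by 0.33 and by 0.28 (limma adjusted p = 0.0131 and 0.0128), and the other 3 did not pass.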

How the data were processed

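The authors deposited log2 values for each probe set after RMA, per the submitters' processing notes. This method subtracts background, equalises the arrays and combines the probes of a set. The sources used here give no software version. No sequencing depth applies, and the number of arrays limits the precision. RMA hides changes in total RNA and compresses differences of very bright and very dim probe sets.

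Of 45101 probe sets, 64 were controls, 34945 had 1 gene symbol, 932 several and 9160 none listed. The gene identifiers of all 8 markers matched the RefSeq gene table. Where a gene had several probe sets, the one with the highest mean level was used. Groups were compared with limma 3.58.1 in R 4.3.3 (lmFit, eBayes, two-sided, genotype only, no filter on dim probe sets), at an adjusted p under 0.05. The procedure was tested on data simulated with independent noise and the same spread in both groups. That simulation does not cover paired arrays, genes that vary together or groups of unequal spread. SDs are over 4 arrays. The labels call the arrays biological replicates, and no 2 arrays held identical values. No test of a list as a set was run.

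Replicate numbers are shared between groups. After subtraction of the group means, arrays with the same number correlated at 0.131 to 0.232 over the genes, each above the limit of 0.1. Arrays with different numbers gave -0.296 to 0.294. Of these, only knockout-labelled replicate 4 with wildtype replicate 1 (0.171) and knockout-labelled replicate 3 with wildtype replicate 4 (0.294) were above the limit. The limit sets arrays with the same number apart from most other pairs, but not from all. Whether the numbers pair the arrays is thus not settled, as no label ties a number to a litter. The main fits left the numbers out, and a block for the replicate number is given as an alternative.

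The markers and the marker lists were chosen with earlier results of these data known. Genes named are the markers, up to 3 called genes of smallest p per list (or the 1 with the smallest p), Otx2, Folr1, Stab2 and the 6 most alike genes. Ttr, Ppbp, Prox1, Ms4a6b, Ms4a6c, Csf1r, Gpr34, Csf1 and Il34 were added after their values were seen.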

Additional observations from a re-analysis of the deposited data

Results flagged for a closer look

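Folr2 in wildtype replicate 4 stood apart from the other wildtype arrays, at 7.46 log2 units against 7.31, 7.31 and 7.30. Its gap to the nearest array was 0.981 of the group's range, above Dixon's 95% limit for 4 arrays. It was the only such case among the 20 groups of 4 arrays that the 10 marker probe sets gave, and chance alone gives about 1 in 20.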

How the results depend on the processing

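Lyve1, Mrc1 and Stab1 kept their direction and their call under the replicate block, array weights, a trended robust prior, other choices of probe sets, the filter on dim genes, both renormalizations and the loss of any 1 array (16 settings), with log2 fold changes of 1.57 to 2.00, 0.90 to 1.12 and 0.72 to 0.92. Cd163 (0.03 to 0.39) and Folr2 (0.13 to 0.28) stayed above 0 and did not pass in any of them that could be run. Pf4 passed with the replicate block (adjusted p = 0.00876), with array weights (0.0422) and over genes above the median level, and Cbr2 was no longer called in 11 of its 15 alternatives (adjusted p up to 0.118). Cd163 and Cbr2 are too dim for the fit over genes above the median level. Without 1 array, the markers that rose numbered 3 to 5, the marker probe sets 4 to 6, and the genes of the whole array 905 to 1845 higher and 1633 to 2089 lower. The replicate block (paired fit) left the markers that rose at 5, with Pf4 in place of Cbr2, and changed no other call among the markers. In that fit the other lists' counts were unchanged but for 14 identity genes and 3 ligands higher, 0 vascular genes higher and 2 erythroid genes lower. Relative to the mean of the macrophage identity genes, 3 markers were higher, and the log2 fold changes of Cd163 (-0.23), Folr2 (-0.22), Cbr2 (-0.14) and Ms4a7 (-0.043) turned below 0, which follows from subtracting the rise of that mean. The cause of the other changes was not tested. Low signal limits what can be said of Cd163, Cbr2 and the second probe set of Ms4a7.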
